A study of Mus musculus with 88 samples.

Results

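Genomic regions carrying γH2AX in the mouse medial prefrontal cortex (mPFC) were examined together with the nuclear RNA of the genes they cover. γH2AX is histone H2A.X phosphorylated on a serine near its tail, a chromatin mark of DNA double-strand breaks. All 260 regions of the deposited mPFC peak list were used, of 542 in the mPFC and hippocampal (HIP) lists together, with the width of each region and the genes named for it. The list names 283 genes: 245 peaks carry 1 gene and 15 peaks carry several. The animals were C57BL/6J wild-type mice labelled as 4 months old, male by the study's methods. Naive mice stayed in the home cage, and the others underwent contextual fear conditioning (CFC), in which a foot shock is paired with a new chamber. Tissue was taken 10 minutes (CFC10) or 30 minutes (CFC30) after the mouse entered the chamber. Nuclei were fixed, sorted into a neuronal fraction positive for NeuN (NeuN+) and a non-neuronal fraction negative for it (NeuN-), and sequenced as total nuclear RNA, with 3 libraries in each of the 6 mPFC groups.

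The chromatin immunoprecipitation was made on whole tissue, and each of its 4 naive and 4 CFC30 mPFC replicates was a pool of animals. Replicates were merged before peaks were called, and naive and CFC30 peaks were combined in a list without heights. A peak can therefore not be assigned to a cell type, to a condition or to a replicate here, and only its position, width and genes were used. The study itself counts more mPFC peaks and genes than this list holds. It also reports peaks by condition and tests their change after CFC, which was not used here. The study calls its RNA replicates independent, but the labels do not say whether each library came from an animal of its own. The p-values below therefore measure only the spread between these libraries, part of which may be technical.

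H2A.X is phosphorylated by DNA damage kinases, and the mark spreads along the chromatin on both sides of a break, so a region with γH2AX is wider than the break itself. In neurons, double-strand breaks are known to arise at early response genes, which are transcribed within minutes of synaptic activity without new protein synthesis. Many of these genes encode transcription factors such as Npas4, Egr1 and Nr4a1, others encode synaptic effectors such as Arc and Homer1, and many carry sites for the activity-regulated factor CREB. Glia and other non-neuronal cells use some of the same genes, and they also respond to glucocorticoids, the adrenal hormones released during stress, through genes such as Per1, Sgk1 and Ddit4.

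Several peaks lay over host genes of microRNAs, the small RNAs that pair with messenger RNAs through bases 2 to 8 (the seed). In all, 30 peaks covered 102 microRNA genes, 60 of them in the imprinted Meg3 cluster and 42 under 29 other peaks. The mature sequences below are shown because microRNAs under separate peaks, or under the same peak, shared a seed, or because the host gene was among those that rose most after CFC. They are from RefSeq (GRCm38.p6), written 5′ to 3′ with the seed in capitals.
miR-132-3p, under the 1700016P03Rik peak (chr11:75173723-75173744): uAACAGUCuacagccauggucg
miR-212-3p, under the 1700016P03Rik peak (chr11:75173443-75173464): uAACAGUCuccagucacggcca
miR-9-5p, under the C130071C03Rik, Gm3764 and Mir9-3hg peaks: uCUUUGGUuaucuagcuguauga
miR-29a-3p, under the Lncpint peak (chr6:31062673-31062694, minus strand): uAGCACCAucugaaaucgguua
miR-29b-3p, under the Lncpint and A330023F24Rik peaks: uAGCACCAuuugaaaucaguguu
miR-29c-3p, under the A330023F24Rik peak (chr1:195037600-195037621): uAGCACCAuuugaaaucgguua
miR-128-3p, under the R3hdm1 and Arpp21 peaks: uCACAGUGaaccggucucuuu
let-7b-5p, under the AC162302.2 peak (chr15:85707325-85707346): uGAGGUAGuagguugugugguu
let-7c-5p, under the AC162302.2 peak (chr15:85706616-85706637): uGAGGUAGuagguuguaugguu
The 3 loci of miR-9 each lay under a peak of their own, at chr13:83738821-83738843, chr3:88215613-88215635 and chr7:79505279-79505301. Both loci of miR-128 were covered as well, at chr1:128202404-128202424 and, on the minus strand, chr9:112118644-112118664.

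Promoter windows from 250 bases before to 50 bases after the transcription start were available from RefSeq for 212 of the 283 peak genes (74.9%), too few to give the share of motifs over all peak genes. The 4 windows below are shown because their genes rose after CFC and because each holds the letters TGACG, the core of the CREB site, more than once. Capitals mark TGACG, or CGTCA where it lies on the other strand, and TGACGTCA is the full palindromic site. Over all 27025 promoters of the same length, 20.9% hold TGACG at least once on either strand and 1.85% hold the full site. Peak genes that did not rise also hold the letters more than once. Among them are Rsrp1, which fell at CFC30 in NeuN+ nuclei, and Eef2, which was not called at CFC30. A match in letters is a description and not evidence that a factor binds there.
Nr4a1, chr15:101266596-101266895, plus strand: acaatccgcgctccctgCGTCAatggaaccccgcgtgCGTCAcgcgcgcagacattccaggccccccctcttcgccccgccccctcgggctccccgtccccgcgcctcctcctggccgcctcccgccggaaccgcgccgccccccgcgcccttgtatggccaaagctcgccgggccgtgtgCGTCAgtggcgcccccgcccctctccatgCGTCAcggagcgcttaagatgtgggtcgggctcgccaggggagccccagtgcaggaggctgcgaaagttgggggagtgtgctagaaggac
Arl4d, chr11:101665291-101665590, plus strand: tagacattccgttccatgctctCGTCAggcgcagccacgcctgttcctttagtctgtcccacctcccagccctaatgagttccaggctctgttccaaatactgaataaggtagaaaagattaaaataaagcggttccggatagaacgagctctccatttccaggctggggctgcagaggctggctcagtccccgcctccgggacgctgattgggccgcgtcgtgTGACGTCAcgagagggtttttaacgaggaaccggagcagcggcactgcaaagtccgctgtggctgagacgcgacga
Homer1, chr13:93303507-93303806, plus strand: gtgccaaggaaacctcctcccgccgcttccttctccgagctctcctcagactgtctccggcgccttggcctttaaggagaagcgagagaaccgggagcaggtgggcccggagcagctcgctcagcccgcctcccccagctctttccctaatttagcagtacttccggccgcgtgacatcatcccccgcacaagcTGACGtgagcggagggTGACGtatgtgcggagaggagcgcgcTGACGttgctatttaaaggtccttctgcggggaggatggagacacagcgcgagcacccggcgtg
Npas4, chr19:4989922-4990221, minus strand: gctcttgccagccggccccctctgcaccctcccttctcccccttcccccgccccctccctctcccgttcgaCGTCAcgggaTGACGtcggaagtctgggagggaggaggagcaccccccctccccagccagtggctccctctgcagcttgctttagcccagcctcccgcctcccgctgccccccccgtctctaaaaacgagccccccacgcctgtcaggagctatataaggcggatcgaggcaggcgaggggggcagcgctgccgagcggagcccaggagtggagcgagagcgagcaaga
The Nr4a1 window holds 4 cores, which begin 233, 213, 69 and 40 bases before the start. In Arl4d the full site runs from 26 to 19 bases before the start, and a further core begins 228 bases before it. Homer1 has cores that begin 56, 40 and 14 bases before its start, and Npas4 has cores that begin 179 and 169 bases before. The Nr4a1 and Npas4 windows lie inside their peaks (chr15:101260898-101276923 and chr19:4982543-4990770). The Homer1 window ends just before its peak begins (chr13:93303828-93449998), and the Arl4d peak (chr11:101665568-101669183) takes in only the last bases of the window.

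The widest peaks lay over long neuronal genes, and the narrowest over small noncoding RNA and histone genes. The 6 widest covered Celf2 (605358 bp), which encodes an RNA-binding splicing regulator, Kalrn (543778 bp), a guanine exchange factor of dendritic spines, Syt1 (522002 bp), the calcium sensor of vesicle release, Phactr1 (469577 bp), Grin2b (469468 bp), an NMDA receptor subunit, and Ntrk2 (332351 bp), the receptor for the neurotrophin BDNF. The 6 narrowest lay at the small nuclear RNA genes Rnu1a1 (625 bp) and Gm22068 (681 bp), at 2900060B14Rik (982 bp) and at the histone H4 genes Hist4h4 (1034 bp), Hist1h4h (1147 bp) and Hist1h4i (1387 bp). Rnu1a1 and Gm22068 neighbour each other at chr11:87422630-87423254 and chr11:87426525-87427205, and both were listed at 0 counts in every mPFC library.

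Among the 245 peaks with 1 gene, 144 covered the whole gene. These genes were short, with a median length of 7038 bp under a median peak of 13059.5 bp. Another 85 peaks covered the 3′ end but not the 5′ end, and took in a median of 93.5% of the gene. Only 10 covered the 5′ end alone, with a median of 42.6% of the gene, and 6 reached neither end. In 27 genes the peak covered under 50% of the gene. Dusp1, a MAP kinase phosphatase, had a peak over 5.62% of its annotated 56539 bp, and Sgk1, a glucocorticoid-induced kinase, had a peak of 9584 bp over 6.73% of its 117720 bp. For such genes, counts over the whole gene body include long stretches outside the peak. The Nr4a1 peak of 16026 bp covered 67.7% of its gene, and the Usp2 peak of 20371 bp covered 65.1%.

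The DNA under the peaks held more G and C than the chromosomes as a whole. Its median GC content was 50.3% (range 34.0% to 65.1%), against 41.76% over chromosomes 1 to 19 and X. When the peaks were ordered by width and cut into 4 groups of 65, the median was 51.8%, 51.05% and 52.08% in the narrower 3 groups and 45.22% in the widest. Chromosome 11 carried 33 peaks, chromosome 7 carried 20 and chromosome X carried 1. Most peak genes were protein coding (259 of 283), and 13 were lincRNAs. The peak with most genes, at chr12:109540939-109751881 (210943 bp), covered the imprinted Meg3, Rtl1, Mirg and Rian together with Gm26906 and B830012L14Rik.

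The mPFC RNA libraries held 10577263 to 16392677 counts. Rbfox3, which encodes NeuN, measured 1650 to 1914 CPM (counts scaled to a common library total) in the NeuN+ libraries and 17.5 to 60.9 in the NeuN- libraries, with the highest NeuN- value in naive replicate 3. Some markers of cell types moved with CFC. In NeuN+ nuclei the summed level of 8 oligodendrocyte markers was 65.7 to 87.9 CPM in naive, 122 to 157 at CFC10 and 119 to 185 at CFC30, with 1 of the 2 tested markers (Mbp) called higher at both times. The summed level of 14 markers of striatal projection neurons was 1476 to 1638 CPM in naive NeuN+ libraries, 2184 to 2936 at CFC10 and 2555 to 2788 at CFC30. In NeuN- libraries it was 231 to 244 CPM in naive, 423 to 756 at CFC10 and 857 to 1003 at CFC30. Pde10a made up most of that sum, 3 of the 7 tested markers of that list were called higher in NeuN+ at CFC30, and Gpr6 was at 0 in 2 NeuN- groups. In NeuN- nuclei 3 of 8 microglial markers were called lower, with summed levels of 1393 to 1446 CPM in naive, 1058 to 1215 at CFC10 and 1041 to 1237 at CFC30. The summed level of the 8 oligodendrocyte markers in NeuN- was 4837 to 5226 CPM in naive, 5736 to 5998 at CFC10 and 5455 to 5942 at CFC30, with Mal and Mobp called higher at both times and Cldn11 at CFC30. Markers of oligodendrocyte precursors (4 genes) summed to 374 to 432 CPM in naive NeuN-, 314 to 351 at CFC10 and 348 to 366 at CFC30, with Cspg4 called lower at CFC10. NeuN- CFC10 replicate 1 stood apart from its group in the striatal sum (756 CPM). The part of these shifts in the results below was not tested. In bulk nuclei, fewer nuclei of a type and less RNA in each cannot be told apart.

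Before any training, peak genes were among the most abundant in nuclear RNA per length, more so in neurons. In naive NeuN+ libraries the median peak gene had 2.71 FPKM (counts per kilobase of gene body, scaled to library size), against 0.725 over all genes tested, and 207 of the 273 peak genes tested stood in the top 25% of genes. In naive NeuN- libraries the medians were 1.79 against 0.86 FPKM, and 148 of 267 stood in the top 25%. Low genes occurred too, with 9 peak genes in the bottom 25% in NeuN+ and 32 in NeuN-. Genes were tested where the mean FPKM over the gene body exceeded 0.2 in at least 1 group, which left out 10 peak genes in NeuN+ and 16 in NeuN-. Those left out in NeuN+ were 2900060B14Rik, 4930404N11Rik, Ddit4, Dusp1, Gm22068, Hist2h3b, Hist4h4, Id3, Klf2 and Rnu1a1. Npas4, Egr4, Cckbr, Ankrd33b and Lingo1 were among those left out in NeuN-.

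Most peak genes were more abundant in one fraction than in the other, with more on the neuronal side. Of 279 tested, 163 (58.4%) were lower in naive NeuN- than in naive NeuN+ nuclei and 70 (25.1%) were higher, called by edgeR at an adjusted p under 0.05. Over all 16559 genes the shares called were 34.1% lower and 35.4% higher. The median peak gene was lower by 0.93 (log2) in NeuN-. TMM scaling factors were 1.17 to 1.22 in NeuN- and 0.810 to 0.856 in NeuN+ libraries, so each log2 difference between fractions lies 0.52 below that of plain CPM.

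**Figure D1:**
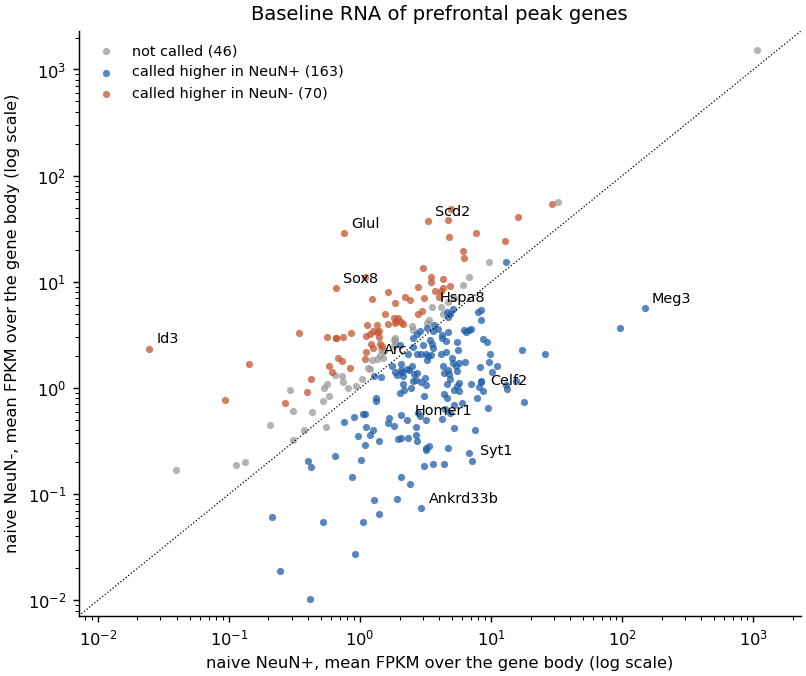
Mean level of each peak gene in naive NeuN+ nuclei (horizontal axis) and naive NeuN- nuclei (vertical axis), both as FPKM over the gene body on log axes, colored by the edgeR call. Of the genes, 163 were called higher in NeuN+, 70 higher in NeuN- and 46 were not called.

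Among the largest differences toward NeuN+ were those of Ankrd33b, Syt1, Cckbr and the noncoding RNAs Mirg, Meg3 and Snhg11. Syt1 measured 3708, 3655 and 3690 CPM in naive NeuN+ libraries and 62.3, 80.3 and 175 in NeuN-, a log2 difference of -5.64 ± 0.27 (SE, edgeR adjusted p = 1.04e-15). Meg3, an imprinted noncoding RNA, measured 4674, 4673 and 4349 CPM against 120, 148 and 253 (-5.24 ± 0.21). Ankrd33b (-5.85 ± 0.22), Cckbr, a receptor for the peptide cholecystokinin (-5.57 ± 0.19), Mirg (-5.34 ± 0.13) and Snhg11 (-5.22 ± 0.18) had differences of like size. The highest NeuN- value of Syt1 and Meg3 came from the same library as the highest Rbfox3. No overlap between the fractions was a condition for naming these 6, and Ankrd33b and Cckbr passed the filter only through NeuN+ libraries.

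Among the largest on the other side were those of Glul, Id3, Sox8, Scd2, Rhob and Gm3764. Glul, the glutamine synthetase of astrocytes, measured 5.17, 7.47 and 9.44 CPM in naive NeuN+ libraries and 282, 276 and 287 in NeuN-, a difference of 4.73 ± 0.12 (edgeR adjusted p = 1.71e-21). Scd2, a fatty acid desaturase, measured 42.0, 42.2 and 45.1 CPM against 492, 440 and 539 (2.99 ± 0.08). Gm3764, the host of a miR-9 locus, measured 111, 118 and 111 against 1236, 1152 and 997 (2.80 from the same fit). Id3, an inhibitor of basic helix-loop-helix factors, was at 0.0861, 0 and 0.0807 CPM in NeuN+ and 5.38, 4.68 and 5.77 in NeuN-. Sox8, a glial transcription factor, differed by 3.21 ± 0.17 and the small GTPase gene Rhob by 2.82 ± 0.15. No overlap between the fractions was again a condition for naming these 6, and Id3 passed the filter only through NeuN- libraries.

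By gene group, 13 of 14 glutamatergic postsynapse genes, all 8 ion pump and channel genes, 9 of 10 presynaptic genes and 15 of 20 activity-regulated effectors were lower in NeuN-. Median differences were -2.42 (log2) for the postsynapse genes and -2.89 for the effectors. Among glucocorticoid-responsive and clock genes 7 of 10 were higher in NeuN-, and among astroglial and metabolic genes 6 of 11 were. Over all genes 34.1% were lower and 35.4% higher in NeuN-. Members of these lists without a peak were not set beside them here, so the counts cannot be read as a trait of having a peak. Arc was level between the fractions, at 5.77, 5.39 and 2.82 CPM in naive NeuN+ and 6.86, 5.83 and 6.81 in naive NeuN- (-0.03 ± 0.20, edgeR adjusted p = 0.92).

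Nuclear RNA of many peak genes was higher in neurons within 10 minutes of CFC. At CFC10, 128 of 273 (46.9%) rose in NeuN+ nuclei, against 8.19% of all 12987 genes tested. At CFC30, 123 rose (45.1%), against 13.1% of all genes. Falls were few, with 5 (1.83%) at CFC10 and 16 (5.86%) at CFC30, against 6.26% and 11.6% of all genes. The median log2 change was 0.20 at CFC10 and 0.17 at CFC30, against 0.01 and 0.00 over all genes, and 221 and 202 of the 273 lay above 0. The 2 comparisons share the naive libraries. The shares called also depend on how many reads a gene has. Among the 25% of genes with the most counts, 49.6% of peak genes and 12.9% of other genes rose at CFC10, and 59.5% and 25.3% at CFC30. Leaving out a library gave 100 to 128 rises at CFC10 and 104 to 127 at CFC30. Falls at CFC10 were 3 without naive or CFC10 replicate 1 and 8 without CFC10 replicate 3, and falls at CFC30 were 10 without CFC30 replicate 1.

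**Figure D2:**
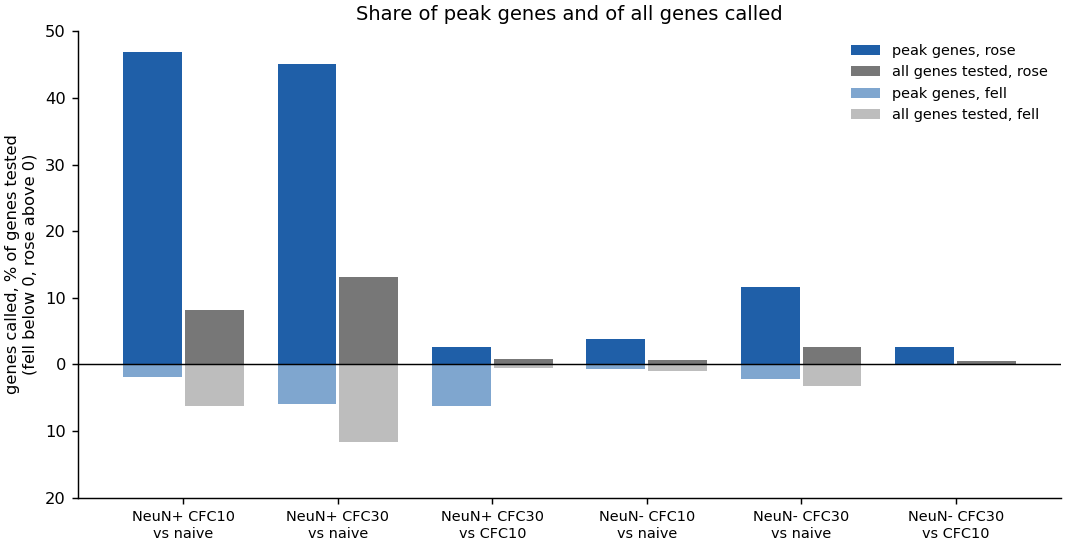
Share of genes called by edgeR (percent, rises above 0 and falls below 0) among peak genes and among all genes tested, for CFC10 against naive, CFC30 against naive and CFC30 against CFC10 in each fraction. The tallest bars are the peak genes that rose in NeuN+ nuclei at CFC10 (46.9%) and CFC30 (45.1%).

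The early response transcription factors were among the genes that rose most. For the largest rises and falls of each comparison with naive, no overlap in CPM was a condition of naming. Npas4, a neuron-specific factor induced by calcium entry, measured 10.9, 6.72 and 5.16 CPM in naive NeuN+ libraries, 44.0, 45.0 and 46.3 at CFC10 and 14.8, 11.6 and 16.4 at CFC30. All CFC10 libraries lay above all others, and the CFC30 libraries lay above the naive ones. The log2 change was 2.58 ± 0.14 at CFC10 (edgeR adjusted p = 3.13e-12) and 0.93 ± 0.16 at CFC30 (edgeR adjusted p = 0.000153). In NeuN- libraries Npas4 stayed between 0.0868 and 1.58 CPM and was below the filter.

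Egr1, a zinc finger factor of the MAP kinase pathway, followed the same course at a like level. It measured 6.98, 4.98 and 2.90 CPM in naive NeuN+ libraries, 36.0, 45.1 and 40.1 at CFC10 and 15.4, 17.7 and 20.8 at CFC30. The 3 groups did not overlap. The rise was 8.22-fold at CFC10 (log2 3.04 ± 0.15, edgeR adjusted p = 1.98e-12) and 3.68-fold at CFC30 (1.88 ± 0.17, edgeR adjusted p = 3.18e-08). Its peak spans chr18:34858631-34866542.

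Junb, a subunit of the AP-1 factor with a peak at chr8:84968812-84979649, was at 1.55, 1.58 and 0.807 CPM in naive NeuN+ libraries, 10.3, 8.62 and 9.44 at CFC10 and 3.58, 3.60 and 3.95 at CFC30. Again the groups did not overlap and CFC10 was highest (2.84 ± 0.18 at CFC10, edgeR adjusted p = 1.27e-10, and 1.52 ± 0.22 at CFC30). Nr4a1, an orphan nuclear receptor, started from a higher level, with 43.0, 41.5 and 35.8 CPM in naive, 107, 107 and 103 at CFC10 and 82.8, 68.5 and 71.2 at CFC30. It too was highest at CFC10 without overlap (1.40 ± 0.07, edgeR adjusted p = 2.15e-12, then 0.91 ± 0.07).

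Egr3, a relative of Egr1 with a peak at chr14:70076423-70087007, kept most of its rise to 30 minutes. Its libraries were at 4.31, 7.05 and 5.24 CPM in naive, 35.7, 27.5 and 27.8 at CFC10 and 25.05, 24.89 and 23.96 at CFC30, so both CFC groups lay above naive. The changes were 2.44 ± 0.13 (edgeR adjusted p = 2.52e-12) and 2.17 ± 0.13 (edgeR adjusted p = 6.36e-11). Klf10, a Krüppel-like factor, measured 3.88, 4.23 and 3.63 CPM in naive, 13.4, 12.5 and 11.8 at CFC10 and 9.29, 10.9 and 10.4 at CFC30, with changes of 1.68 ± 0.12 and 1.40 ± 0.13. For Klf10 too, no CFC library reached down to naive.

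Among the synaptic effectors Arc, which binds endocytic proteins and removes AMPA receptors from synapses, rose most. Its peak, at chr15:74667117-74673281, is 6165 bp wide. NeuN+ libraries measured 5.77, 5.39 and 2.82 CPM in naive, 73.7, 61.6 and 61.4 at CFC10 and 30.5, 29.3 and 35.6 at CFC30. The groups were far apart and CFC10 was highest. The rise was 14.1-fold at CFC10 (3.82 ± 0.13, edgeR adjusted p = 1e-15) and 6.92-fold at CFC30 (2.79 ± 0.14, edgeR adjusted p = 2.7e-12).

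1700016P03Rik is the noncoding host of miR-132 and miR-212, whose shared seed is printed above, and its peak (chr11:75169952-75182738) covers both. It measured 4.39, 7.80 and 3.79 CPM in naive NeuN+ libraries, 49.2, 36.6 and 38.1 at CFC10 and 41.6, 47.6 and 44.1 at CFC30. Both CFC groups lay far above naive and overlapped each other. The changes were 2.94 ± 0.15 at CFC10 (edgeR adjusted p = 2.15e-12) and 3.08 ± 0.15 at CFC30 (edgeR adjusted p = 9.31e-13). Counts cover the host gene, and mature microRNAs were not measured.

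Homer1, a postsynaptic scaffold gene whose short activity-induced form uncouples glutamate receptors, rose further between the times. NeuN+ libraries measured 215, 261 and 245 CPM in naive, 462, 432 and 494 at CFC10 and 755, 755 and 685 at CFC30. The groups did not overlap and CFC30 was highest. The rise was 1.93-fold at CFC10 (0.95 ± 0.06, edgeR adjusted p = 2.09e-10) and 3.09-fold at CFC30 (1.63 ± 0.06, edgeR adjusted p = 1.45e-14).

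**Figure D3:**
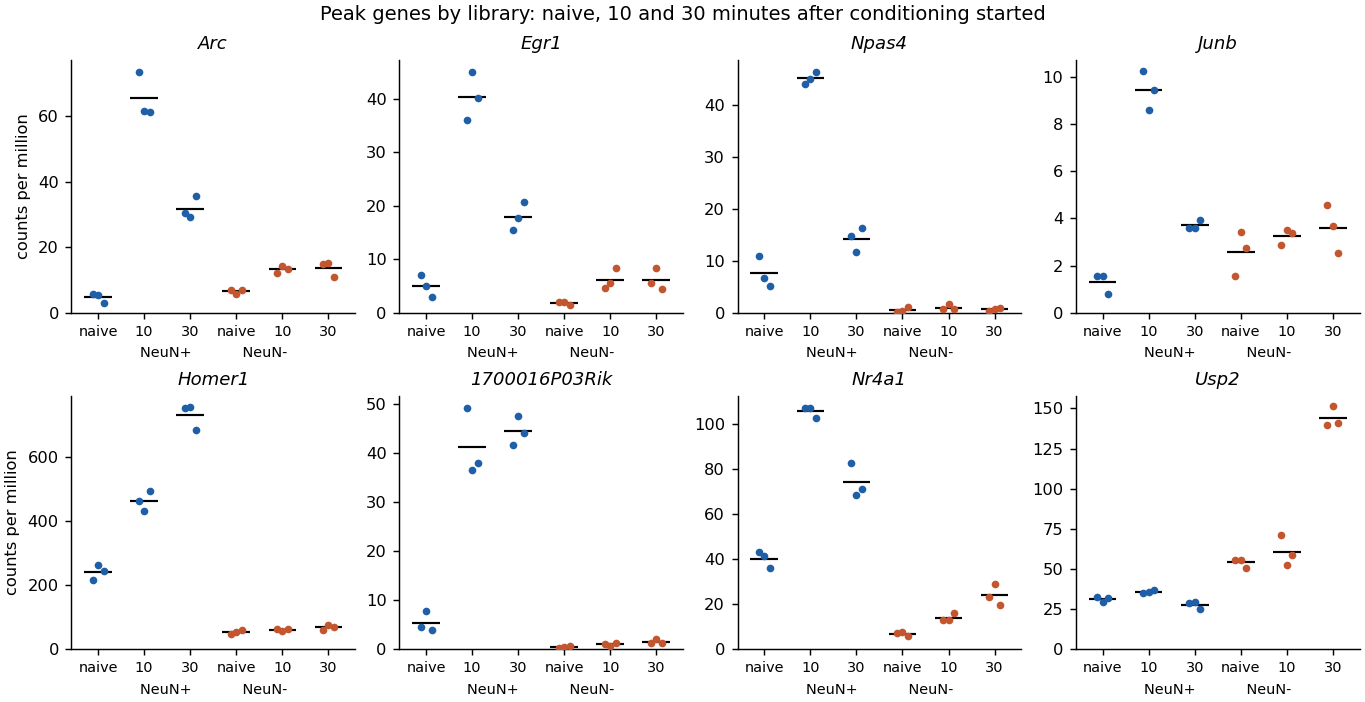
CPM (vertical axis, a linear scale of its own in each panel) of Arc, Egr1, Npas4, Junb, Homer1, 1700016P03Rik, Nr4a1 and Usp2 in the naive, CFC10 and CFC30 libraries of both fractions, with points for the 3 libraries and bars for their mean. In NeuN+ nuclei Arc, Egr1, Npas4, Junb and Nr4a1 were highest at CFC10 and Homer1 at CFC30, and Usp2 was higher after CFC in NeuN- nuclei at CFC30.

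As a group, the early response factors and their partners rose nearly throughout. Of 13 tested in NeuN+, 12 rose at CFC10 and 11 at CFC30, with medians of 1.40 and 0.93. Besides those above, Bhlhe40, a repressor also known as a clock regulator, changed by 1.18 ± 0.12 at CFC10, Nab2, a corepressor of the EGR factors, by 0.83 ± 0.12, and Ier5 by 0.84 ± 0.17. Egr4 rose at CFC10 (2.66 ± 0.42, edgeR adjusted p = 0.000103) but not at CFC30 (1.15 ± 0.53, edgeR adjusted p = 0.119), on few reads (0.249 to 5.29 CPM). Of 13 genes on the same list without an mPFC peak, 9 rose at each time and 1 fell at CFC30. MAP kinase feedback inhibitors rose in 5 of 5 genes at CFC10 and 4 of 5 at CFC30, and 6 and 5 of 7 without a peak did. Dusp6, a phosphatase that acts on ERK, measured 3.62, 2.90 and 2.90 CPM in naive, 11.5, 9.77 and 8.90 at CFC10 and 5.50, 5.80 and 5.58 at CFC30, with no overlap (1.67 ± 0.14, edgeR adjusted p = 1.93e-08, then 0.86 ± 0.16). Spred1 and Spred2, which hold back Ras signaling, reached 0.94 ± 0.06 and 0.83 ± 0.09 at CFC30, and the phosphatase Dusp7 changed by 0.34 ± 0.10.

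Activity-regulated synaptic and secreted effectors rose in 19 of 20 genes at CFC10 and 15 of 20 at CFC30, with medians of 0.57 and 0.42. Secreted products were among them. Vgf, a neuropeptide precursor, measured 17.7, 21.1 and 17.0 CPM in naive NeuN+ libraries, 32.7, 26.6 and 28.5 at CFC10 and 27.5, 25.4 and 26.4 at CFC30 (0.65 ± 0.09 and 0.52 ± 0.09). The peptide gene Cck changed by 0.60 ± 0.09 and 0.36 ± 0.09, the neuritin gene Nrn1 by 0.54 ± 0.07 and 0.37 ± 0.07 and the pentraxin gene Nptx1 by 0.30 ± 0.06 at both times. Pcsk2, a protease that matures such peptides, was the member that fell, from 1338, 1211 and 1273 CPM in naive to 1021, 1020 and 1184 at CFC30 (-0.23 ± 0.05, edgeR adjusted p = 0.00144). Without an mPFC peak, 10 of 12 genes of the list rose at each time.

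Genes of the synapse itself changed by less. Of 14 glutamatergic postsynapse genes, 7 rose at CFC10 and 9 at CFC30, with medians of 0.23 and 0.21. They included Shank1, a scaffold (0.32 ± 0.06 at CFC30), Adgrb1, an adhesion receptor (0.32 ± 0.05), Synpo, of the spine apparatus (0.35 ± 0.06), and Grin2b (0.19 ± 0.04). Camk2a, the kinase of long-term potentiation, changed by 0.15 ± 0.05 at CFC30 (edgeR adjusted p = 0.0368, not called by DESeq2), and Gria2, an AMPA receptor subunit, by -0.08 ± 0.04 (edgeR adjusted p = 0.18). Of 10 presynaptic genes, 5 rose at both times, among them Ptprn, of dense core vesicles (0.58 ± 0.07 at CFC30), Bsn, a scaffold of the active zone (0.25 ± 0.04), Slc17a7, the vesicular glutamate transporter (0.20 ± 0.05), and Vamp2, a vesicle SNARE (0.32 ± 0.09). Syt1 fell by 0.17 at CFC30 on the log2 scale. Of the same lists without a peak, 6 of 14 postsynapse genes rose and 2 fell at CFC30, and 6 of 13 presynapse genes rose.

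Pumps rose modestly, with 5 of 8 pump and channel genes at CFC30, among them the calcium pumps Atp2a2 (0.27 ± 0.05), Atp2b2 (0.27 ± 0.04) and Atp2b1 (0.14 ± 0.04), while the potassium channel gene Kcnj9 fell (-0.17 ± 0.06). Of 6 pump and channel genes without a peak, 2 rose and 1 fell at each time. The calmodulin gene Calm2 rose at both times (0.40 ± 0.06 at CFC10 and 0.25 ± 0.06 at CFC30), and Calm3 changed by 0.12 ± 0.09 at CFC10, not called. Of 24 cytoskeletal genes 9 rose at CFC10 and 6 at CFC30, and 2 fell at CFC30. Of 14 without a peak, 1 rose at CFC10, and 2 rose and 1 fell at CFC30. The largest cytoskeletal rises were in the formin Fmnl1 (0.84 ± 0.07 at CFC30), the actin-bundling Dmtn (0.42 ± 0.07) and the microtubule-associated Map1b (0.34 ± 0.05). Actb measured 16.0, 17.3 and 19.04 CPM in naive NeuN+, 23.6, 26.7 and 25.4 at CFC10 and 20.1, 22.1 and 21.1 at CFC30 (0.53 ± 0.08 and 0.29 ± 0.08). The neuronal tubulin gene Tuba1a changed by 0.12 ± 0.14 and -0.25 ± 0.15, neither called. Stmn1, a microtubule destabilizer, fell by 0.50 at CFC30 on the log2 scale (edgeR adjusted p = 0.000325). Actg1 fell by 0.45 (edgeR adjusted p = 0.049, not called by DESeq2).

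Chaperone genes rose in 8 of 11 at CFC10 and 5 of 11 at CFC30. Hspa8, the constitutive member of the HSP70 family, measured 28.2, 33.0 and 35.4 CPM in naive NeuN+ libraries, 66.6, 59.1 and 56.5 at CFC10 and 42.8, 50.2 and 49.9 at CFC30. No CFC library reached the naive range (0.91 ± 0.08, edgeR adjusted p = 2.83e-08, then 0.58 ± 0.08). Dnajb5, an HSP40 cochaperone, changed by 0.95 ± 0.11 and 1.01 ± 0.11, and Hspa5, of the endoplasmic reticulum, by 0.40 ± 0.10 and 0.52 ± 0.10. Of chaperone genes without a peak, 10 of 24 rose at CFC10 and 12 at CFC30.

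RNA-binding genes divided. Hnrnpa2b1 (0.26 ± 0.06 at CFC30), Khdrbs3 (0.18 ± 0.04) and Hnrnpl rose, while Celf2, Arpp21 and Rsrp1 fell at both times. Celf2 measured 8595, 8182 and 8597 CPM in naive NeuN+ libraries, 7479, 7509 and 7716 at CFC10 and 7390, 7511 and 7506 at CFC30. All CFC libraries lay below all naive libraries, though the change was small (-0.16 ± 0.03 at CFC30, edgeR adjusted p = 0.000991). Rsrp1 was at 121, 122 and 114 CPM in naive, 97.0, 113 and 92.7 at CFC10 and 87.5, 87.5 and 92.1 at CFC30 (-0.40 ± 0.06 at CFC30, edgeR adjusted p = 2.15e-05). Of 34 RNA-binding genes without a peak, 8 rose and 3 fell at CFC30. Of 5 translation factors 2 rose at CFC10 and 1 at CFC30, Eif4a1 at both (0.37 ± 0.09 and 0.42 ± 0.08) and Eef1a2 at CFC10 only (0.29 ± 0.07). The elongation factor Eef2 was not called (0.09 ± 0.08 at CFC30).

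Of the 10 replication-dependent histone genes tested, 1 rose at CFC10 (Hist2h2bb, 1.504 ± 0.47, edgeR adjusted p = 0.031) and none at CFC30. At CFC30 edgeR gave 1 with an unadjusted p under 0.05 and DESeq2 called 0. The Hist2h2bb call rested on few reads and was lost when a library was left out. Hist1h1e, Hist2h2ac and Hist2h4 were not called at either time in either fraction.

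Host genes of microRNAs with the same seed did not always share a direction. Among 17 long noncoding and microRNA host genes, 5 rose and 1 fell at CFC10 in NeuN+, and 6 rose and 1 fell at CFC30. Of the 3 miR-9 hosts, C130071C03Rik fell from 236, 225 and 244 CPM in naive to 182, 209 and 211 at CFC10 and 170, 176 and 186 at CFC30 (-0.39 ± 0.06 at CFC30, edgeR adjusted p = 1.85e-05). Gm3764 rose from 111, 118 and 111 CPM to 141, 135 and 139 and then 155, 155 and 134 (0.41 ± 0.06, edgeR adjusted p = 1.4e-05). Mir9-3hg rose from 109, 120 and 129 CPM to 154, 146 and 153 and then 157, 155 and 146 (0.38 ± 0.06, edgeR adjusted p = 3.1e-05). In each of the 3, CFC libraries did not overlap naive.

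Both miR-29 hosts rose at CFC30, Lncpint by 0.38 ± 0.06 and A330023F24Rik by 0.14 ± 0.04. The A330023F24Rik call was lost without naive replicate 1 or CFC30 replicate 2. Of the miR-128 hosts, R3hdm1 changed by 0.14 ± 0.05 (edgeR adjusted p = 0.044) and Arpp21 by -0.19 ± 0.05 (edgeR adjusted p = 0.00335). AC162302.2, the host of let-7b and let-7c, was not called (0.11 ± 0.06, edgeR adjusted p = 0.154).

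Cortical transcription factors rose in 3 of 11 genes at CFC10 and 4 at CFC30, when 3 fell. Without a peak, 2 of 9 rose at each time. Hivep2 changed by 0.42 ± 0.04 at CFC30 and Tet3, a 5-methylcytosine dioxygenase, went from 136, 143 and 150 CPM in naive to 246, 247 and 211 at CFC30. Mef2c, a regulator of synapse number, fell by 0.23 on the log2 scale (edgeR adjusted p = 0.00101). Neurod2 was at 10.2, 11.5 and 8.79 CPM in naive and 10.9, 10.9 and 10.6 at CFC30, not called. Astroglial and metabolic genes rose in 6 of 11 at CFC10 and 7 at CFC30, and 2 without a peak were tested and not called. The largest change was in Ntrk2, at 1133, 1070 and 1044 CPM in naive, 1661, 1660 and 1798 at CFC10 and 1801, 1761 and 1648 at CFC30 (0.66 ± 0.05 and 0.70 ± 0.05). The creatine kinase gene Ckb changed by 0.47 ± 0.09 at CFC30 and the leucine zipper factor Tsc22d1, on the glucocorticoid list, by 0.18 ± 0.05. Slc1a2, the astroglial glutamate transporter, changed by 0.19 ± 0.05, beside 7 astrocyte markers whose sum in NeuN+ libraries was 12.3 to 17.1 CPM in naive and 13.1 to 17.99 at CFC30. Sox8, on the cortical list but glial in its naive level, rose in NeuN+ from 3.27, 3.32 and 2.82 CPM to 9.77, 7.44 and 7.60 at CFC30 (1.42 ± 0.20, edgeR adjusted p = 1.24e-05), while oligodendrocyte markers in the same libraries rose as given above.

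Between 10 and 30 minutes most peak genes were not called, and the few that fell and the few that rose lay under peaks of different width. In NeuN+ nuclei 17 of 273 peak genes (6.23%) were lower at CFC30 than at CFC10, against 0.531% of all genes, and 7 (2.56%) were higher, against 0.755%. Of the 17 that fell, 15 belonged to the 130 narrower peaks. All 7 that rose belonged to the 65 widest peaks, of 43069 bp or more. Among the 65 narrowest peaks (median 5362 bp) 0 rose and 8 of 58 genes fell. In the next group (median 11923 bp) 0 rose and 7 of 65 fell, in the third (median 25382 bp) 0 rose and 2 of 78 fell, and in the widest (median 103562 bp) 7 of 72 rose and 0 fell. Where edgeR called 0, the genes at an unadjusted p under 0.05 were 0, 0 and 4 for rises in the 3 narrower groups and 3 for falls in the widest, and DESeq2 called 0 in each. Median naive NeuN+ counts were 37.3, 225, 751.5 and 5318 reads per gene from the narrowest to the widest group. Small changes could therefore be called less readily under narrow peaks.

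Genes without an mPFC peak were counted in the same way by their length. Of 2703 genes without a peak no longer than 4301 bp, 0 rose and 6 fell (0.222%), against 8 of 62 peak genes of that length (12.9%). Of 3867 genes without a peak longer than 41217 bp, 74 rose (1.91%) and 13 fell, against 7 rises (10%) and 0 falls among 70 peak genes. These shares were compared without a test. From the shortest to the longest of 4 length classes, the median log2 change was -0.08, -0.06, -0.03 and 0.03 in genes without a peak. Among peak genes it was -0.14, -0.12, -0.01 and 0.05. Leaving out a library gave 4 to 10 rises in the widest group and 8 to 17 falls in the narrower 130 peaks. The rises were 4 without CFC10 replicate 2, without CFC30 replicate 1 or without CFC30 replicate 2, and the falls were 8 without CFC10 replicate 2 and 9 without CFC30 replicate 1. DESeq2 called 8 rises and 11 falls.

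**Figure D4:**
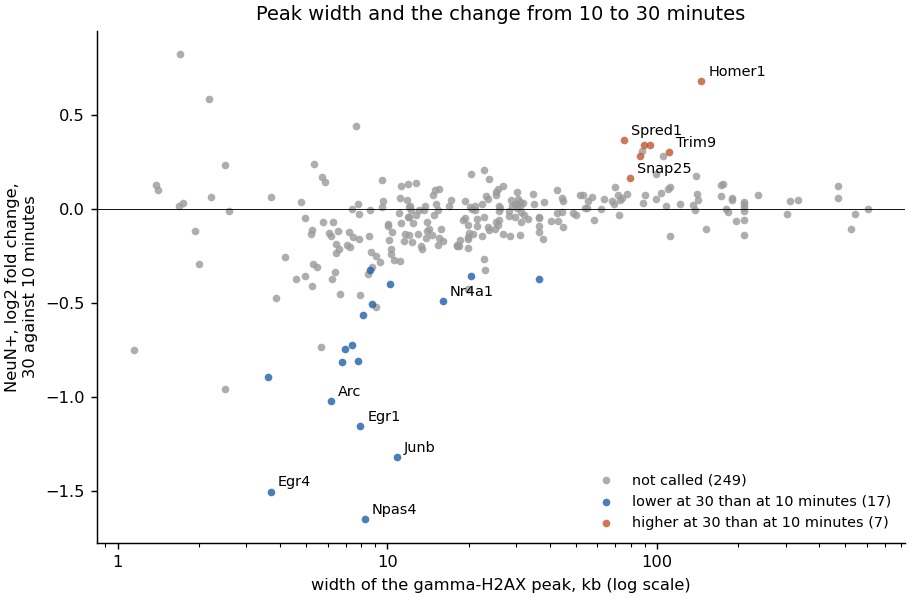
Width of each peak (kilobases, log axis) against the log2 change of its genes from CFC10 to CFC30 in NeuN+ nuclei, colored by the edgeR call. Of 273 genes, 17 fell and 7 rose, all 7 under the widest peaks.

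The falls were led by the early response factors. Npas4 dropped by 1.65 (log2) between the times (edgeR adjusted p = 9.94e-09), Egr4 by 1.51 (edgeR adjusted p = 0.0194), Junb by 1.32 (edgeR adjusted p = 3.16e-06), Egr1 by 1.16 (edgeR adjusted p = 1.42e-06) and Arc by 1.02 (edgeR adjusted p = 2.48e-07). Arl4d, a small GTPase gene, Actg1, Dusp6, Tob1, Ptma, Rgs4, Tuba4a, Nr4a1, Stmn1, Nr1d1, Usp2 and Hspa8 fell by 0.90 to 0.33. Among them, Arl4d, Actg1, Tob1, Tuba4a, Stmn1, Usp2 and Hspa8 lost the call when single libraries were left out. Rgs4, which shortens G protein signals, measured 15.8, 17.3 and 17.0 CPM in naive, 21.004, 22.3 and 24.3 at CFC10 and 13.9, 15.1 and 16.2 at CFC30. Its CFC10 libraries lay above the rest, and its CFC30 libraries overlapped naive.

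The 7 that rose later were Homer1 (0.68 ± 0.06, edgeR adjusted p = 2.48e-07), Spred1 (0.37 ± 0.06), Tet3 (0.34), Baiap2 (0.34), Trim9 (0.30 ± 0.05), Ankrd33b (0.28 ± 0.06) and Snap25 (0.16). Tet3, Ankrd33b and Snap25 lost this call without CFC10 replicate 2 or CFC30 replicate 1 or 2, and Snap25 also without CFC30 replicate 3. Baiap2, an actin regulator of dendritic spines, measured 195, 204 and 209 CPM in naive, 304, 258 and 256 at CFC10 and 344, 325 and 350 at CFC30. Snap25, a SNARE of the presynaptic membrane, measured 631, 660 and 655 CPM, then 720, 703 and 738 and then 789, 795 and 802. For both genes the 3 groups were in order without overlap. Of the 6 widest peaks, Phactr1 and Ntrk2 rose at both times against naive, Grin2b at CFC30 only, Celf2 fell at both times, Syt1 fell at CFC30, and Kalrn was not called (-0.03 ± 0.04 at CFC30).

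In the non-neuronal fraction fewer peak genes were called, and more at CFC30 than at CFC10. At CFC10, 10 of 267 peak genes (3.75%) rose in NeuN- nuclei, against 0.74% of all 14866 genes, and 2 (0.749%) fell, against 0.969%. At CFC30, 31 rose (11.6%), against 2.68%, and 6 fell (2.25%), against 3.18%. Median changes were 0.06 and 0.07. From CFC10 to CFC30 7 rose (2.62%), against 0.552% of all genes. None fell, against 0.148%, with 15 at an unadjusted edgeR p under 0.05 and 0 by DESeq2. Among the 25% of genes with the most counts, 16.8% of peak genes and 5.67% of other genes rose at CFC30. The CFC10 counts depended on single libraries, with 2 rises without naive replicate 1 or 2, and 5 without CFC10 replicate 2 or 3. At CFC30 there were 20 rises without naive replicate 2 and 10 falls without CFC30 replicate 2.

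The 10 that rose at CFC10 were Arc, Egr1, Nr4a1, Hspa8, Hsp90ab1, Dynll1, Fth1, Ptma, Spry2 and Tob1, and the 2 that fell were 3110039M20Rik (-0.41 ± 0.09, edgeR adjusted p = 0.0311) and Sirpa. Without naive replicate 1 or 2 or CFC10 replicate 2 or 3, neither fall was called. Arc measured 6.86, 5.83 and 6.81 CPM in naive NeuN- libraries, 12.1, 14.2 and 13.5 at CFC10 and 14.9, 15.1 and 10.8 at CFC30. Both CFC groups lay above naive and overlapped each other (1.03 ± 0.15, edgeR adjusted p = 0.0043, and 1.09 ± 0.14, edgeR adjusted p = 0.000422). The neuron-specific Npas4 was at or under 1.58 CPM in the NeuN- libraries, and Rbfox3 was at 17.5 to 60.9 CPM. The part of neuronal RNA in the NeuN- changes was not tested. Egr1 measured 2.00, 2.03 and 1.42 CPM in naive, 4.56, 5.61 and 8.35 at CFC10 and 5.58, 8.35 and 4.42 at CFC30, again without overlap of naive and CFC (1.75 ± 0.29, edgeR adjusted p = 0.0103, lost without any 1 naive library, and 1.77 ± 0.29, edgeR adjusted p = 0.00218).

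Nr4a1 went on rising. It measured 7.12, 7.33 and 5.77 CPM in naive NeuN- libraries, 13.0, 12.7 and 15.8 at CFC10 and 23.0, 28.9 and 19.4 at CFC30. The 3 groups stood in order without overlap, unlike NeuN+ nuclei, where CFC10 was highest. The change was 1.04 ± 0.16 at CFC10 (edgeR adjusted p = 0.0085), 1.84 ± 0.15 at CFC30 (edgeR adjusted p = 6.51e-06) and 0.81 ± 0.14 between them (edgeR adjusted p = 0.0115).

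Arl4d also climbed, with 1.56, 2.12 and 1.32 CPM in naive NeuN- libraries, 3.77, 3.24 and 2.94 at CFC10 and 4.94, 6.94 and 6.77 at CFC30 (1.91 ± 0.22 at CFC30, edgeR adjusted p = 0.000108). In NeuN+ it was at 0.517, 0.664 and 0.645 CPM, then 2.56, 2.78 and 2.17 and then 1.38, 1.16 and 1.47, highest at CFC10. 1700016P03Rik rose in NeuN- on few reads, from 0.0868, 0.265 and 0.473 CPM to 1.10, 1.93 and 1.17 at CFC30 (2.36 ± 0.50, edgeR adjusted p = 0.0121), a call lost without naive replicate 1 or 2 or CFC30 replicate 2.

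Glucocorticoid-responsive and clock genes rose in 5 of 10 at CFC30 and in 0 of 10 at CFC10, where edgeR gave 4 with an unadjusted p under 0.05 and DESeq2 called 0. In NeuN+ nuclei 3 of 9 genes of this list rose at CFC10 (Klf9, Nr1d1 and Per1), and at CFC30 Klf9, Per1 and Tsc22d1 rose while Dbp and Thra fell. Usp2, a deubiquitinase with circadian expression, measured 55.7, 55.3 and 50.7 CPM in naive NeuN- libraries, 70.9, 52.6 and 58.5 at CFC10 and 140, 151 and 141 at CFC30. The CFC30 libraries stood far above the rest, while naive and CFC10 overlapped. The rise was 2.73-fold at CFC30 (1.45 ± 0.09, edgeR adjusted p = 8.88e-07), nearly all of it after 10 minutes (1.27 ± 0.09 from CFC10 to CFC30, edgeR adjusted p = 4.43e-06).

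Sgk1 measured 62.7, 56.7 and 68.7 CPM in naive NeuN-, 117, 67.9 and 70.4 at CFC10 and 129, 148 and 125 at CFC30. CFC30 lay above all other libraries, and CFC10 replicate 1 stood alone near it (1.12 ± 0.16 at CFC30, edgeR adjusted p = 0.000877). Per1, a clock gene under the same peak as Vamp2 (chr11:69087573-69112954), measured 57.1, 60.5 and 65.6 CPM, then 76.5, 73.1 and 66.0 and then 109, 145 and 109. Its CFC groups did not overlap naive or each other (1.01 ± 0.10 at CFC30, edgeR adjusted p = 2.99e-05). In NeuN+ Per1 changed by 1.03 ± 0.10 at CFC10 and 1.12 ± 0.10 at CFC30.

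Ddit4, an inhibitor of mTOR signaling, was at 3.91, 3.71 and 3.31 CPM in naive NeuN-, 6.05, 4.64 and 4.68 at CFC10 and 6.32, 7.47 and 8.30 at CFC30 (1.04 ± 0.17, edgeR adjusted p = 0.002). Klf9, a Krüppel-like factor induced by glucocorticoids, measured 82.8, 81.6 and 79.6 CPM, then 104, 101 and 94.0 and then 95.2, 122 and 121 (0.50 ± 0.08 at CFC30, edgeR adjusted p = 0.00241). Both were in order of naive below CFC30 without overlap. In NeuN+ Klf9 changed by 0.57 ± 0.07 and 0.60 ± 0.07. Dbp, a clock output gene, went the other way, from 49.6, 44.2 and 44.6 CPM to 26.2, 37.8 and 34.4 and then 27.4, 33.8 and 25.1 (-0.66 ± 0.12 at CFC30, edgeR adjusted p = 0.00559). Of 10 genes of this list without a peak, 3 rose at CFC30.

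Klf2, a Krüppel-like factor of endothelial cells, varied between libraries, with 2.43, 1.59 and 1.99 CPM in naive NeuN-, 1.58, 6.05 and 5.60 at CFC10 and 5.77, 13.8 and 5.24 at CFC30 (2.07 ± 0.44, edgeR adjusted p = 0.0123, lost without naive replicate 2 or 3). The summed level of 6 endothelial markers was 166 to 327 CPM in naive NeuN- and 162 to 497 at CFC30. Plk2, a synaptic kinase, was at 5.38, 5.92 and 8.13 CPM in naive NeuN- and 9.52, 15.9 and 10.8 at CFC30 (0.93 ± 0.21, edgeR adjusted p = 0.0151, lost without naive replicate 1 or 2 or CFC30 replicate 2). Dusp1, whose annotated gene is long for its counts, was below the filter. Its CPM were 3.04, 2.91 and 3.21 in naive NeuN-, 6.84, 8.67 and 7.80 at CFC10 and 5.68, 9.14 and 6.41 at CFC30. No CFC library of Dusp1 overlapped naive, and it was not tested.

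Chaperones rose in 4 of 11 genes at CFC30, and 14 of 28 chaperone genes without a peak rose as well. Hsp90ab1, the constitutive HSP90, measured 52.6, 60.9 and 69.8 CPM in naive NeuN-, 85.4, 78.4 and 98.7 at CFC10 and 96.7, 107 and 90.6 at CFC30, with no CFC library as low as naive (0.71 ± 0.10 at CFC30, edgeR adjusted p = 0.000967). Hspa8 changed by 0.69 ± 0.10 and Hspa5 by 0.56 ± 0.08. Ntrk2 changed by 0.77 ± 0.08 and the spectrin gene Sptan1 by 0.31 ± 0.08. Among postsynapse and presynapse genes 0 of 14 and 0 of 10 rose at CFC30. For those lists edgeR gave 0 and 1 at an unadjusted p under 0.05, and DESeq2 called 0. The axonal motor gene Kif1a changed by -0.13 ± 0.07, the helicase gene Ddx5 by 0.19 ± 0.09 and Hivep3 by -0.18 ± 0.05 (edgeR adjusted p = 0.0606), none of them called. None of the 5 MAP kinase feedback inhibitors rose at CFC30, with 0 at an unadjusted edgeR p under 0.05 and 0 by DESeq2, and Spry2 rose at CFC10 (0.41 ± 0.10, edgeR adjusted p = 0.0452).

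The falls at CFC30 in NeuN- were Dbp (-0.66), Gm3764 (-0.59 ± 0.10), Rsrp1 (-0.47 ± 0.11), Sirpa (-0.46 ± 0.06), Tmem151a (-0.43 ± 0.09) and Trim9 (-0.42 ± 0.08). Without naive replicate 1 or 2 the Rsrp1 and Tmem151a calls were lost, and that of Rsrp1 also without CFC30 replicate 3. Sirpa, a receptor for the CD47 signal on neurons and myeloid cells, measured 462, 427 and 411 CPM in naive NeuN-, 355, 346 and 347 at CFC10 and 319, 288 and 320 at CFC30, in order without overlap (edgeR adjusted p = 0.000695 at CFC30). The microglial markers that fell in the same libraries are given above, and their part in the Sirpa values was not tested.

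Genes called in both fractions could differ between them. Of 261 peak genes tested in both at CFC30, 22 rose in both, 92 rose in NeuN+ and were not called in NeuN-, and 7 rose in NeuN- and were not called in NeuN+. Over all genes tested in each fraction, 13.1% rose in NeuN+ and 2.68% in NeuN-. How all genes divide among these classes was not counted. The change itself was compared by an interaction term. At CFC10 it was lower in NeuN- than in NeuN+ for 26 of 279 peak genes (9.32%), against 1.24% of all genes. It was higher for 0, against 0.64%, with 6 at an unadjusted edgeR p under 0.05 and 1 by DESeq2. At CFC30 it was lower for 31 (11.1%), against 2.57%, and higher for 9 (3.23%), against 1.61%. The 9 became 4 or 5 without NeuN- naive replicate 1 or 2, NeuN+ naive replicate 2 or 3 or NeuN+ CFC30 replicate 1 or 2, and 15 without NeuN- naive replicate 3. Of the 92 called in NeuN+ alone, 23 differed by this test, as did 6 of the 7 called in NeuN- alone.

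**Figure D5:**
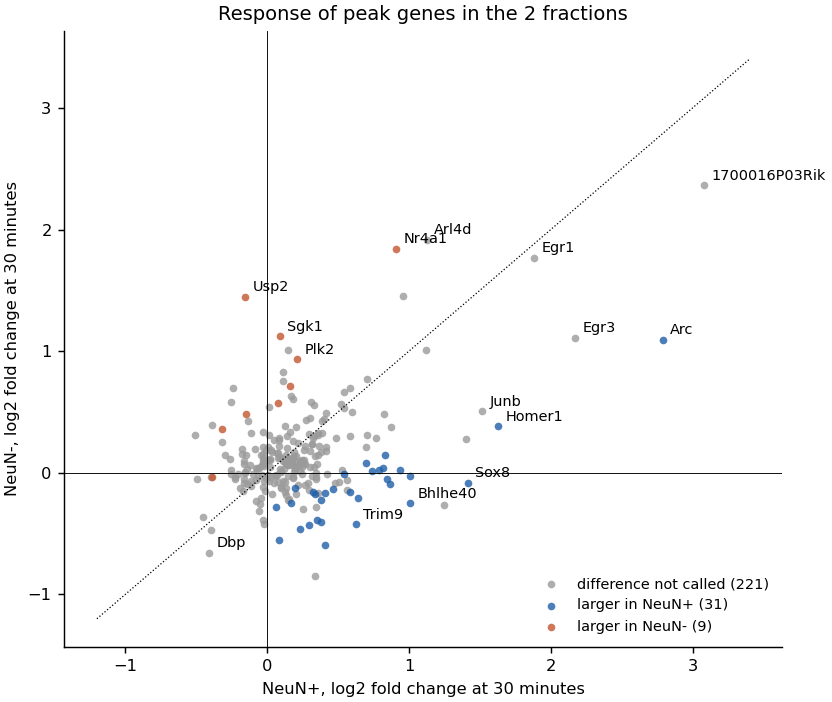
Log2 change from naive to CFC30 of the 261 peak genes tested in both fractions, NeuN+ on the horizontal and NeuN- on the vertical axis, colored by the interaction test. The signed log2 change was higher in NeuN+ for 31 genes, higher in NeuN- for 9 and not called different for 221. Of the 9, 1 fell in NeuN+ and was not called in NeuN-.

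Neuronal changes were larger for Arc, by 2.77 (log2) at CFC10 (NeuN- minus NeuN+ -2.77 ± 0.24, edgeR adjusted p = 9.27e-07) and -1.70 ± 0.24 at CFC30 (edgeR adjusted p = 0.000168). Junb followed at CFC10 (-2.49 ± 0.35, edgeR adjusted p = 0.00043). Homer1 rose in NeuN+ as above and was at 46.6, 51.9 and 59.0 CPM in naive NeuN- and 59.5, 72.9 and 69.1 at CFC30, a difference of -1.25 ± 0.13 (edgeR adjusted p = 2.76e-06). Bhlhe40 rose in NeuN+ from 6.63, 6.14 and 8.63 CPM to 17.4, 14.9 and 16.5 at CFC10, and in NeuN- it was at 20.7, 25.7 and 27.1 CPM in naive and 19.6, 22.6 and 23.6 at CFC10 (-1.32 ± 0.17, edgeR adjusted p = 0.000203). Dusp6 differed by -1.63 ± 0.20 at CFC10, and Sox8 by -1.51 ± 0.23 at CFC30 (edgeR adjusted p = 0.000317).

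The reverse held for Usp2, Sgk1 and Nr4a1 at CFC30. In NeuN+ nuclei Usp2 was at 32.4, 29.0 and 31.8 CPM in naive and 28.3, 29.2 and 24.7 at CFC30, so its difference was 1.59 ± 0.13 (edgeR adjusted p = 1.66e-07). Sgk1 was level in NeuN+, at 110, 108 and 100 CPM in naive and 115, 109 and 110 at CFC30 (difference 1.03 ± 0.18, edgeR adjusted p = 0.00107). Nr4a1 rose in both and by more in NeuN- (0.92 ± 0.18, edgeR adjusted p = 0.00263). The iron storage gene Fth1 (0.66 ± 0.19, edgeR adjusted p = 0.0459) and Plk2 (0.72 ± 0.20, edgeR adjusted p = 0.0465) lost this call when single libraries were left out.

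In 4 genes the fractions moved in opposite directions at CFC30: Gm3764, Sirpa, Tmem151a and Trim9 rose in NeuN+ and fell in NeuN-, and all 4 differed by the interaction test. The fall of Tmem151a in NeuN- lost its call without naive replicate 1 or 2. Trim9, a ubiquitin ligase of axon guidance, measured 497, 574 and 516 CPM in naive NeuN+ and 813, 829.1 and 777 at CFC30, against 594, 562 and 569 in naive NeuN- and 391, 495 and 378 at CFC30 (-1.06 ± 0.11, edgeR adjusted p = 2.76e-06). Gm3764 measured 731, 825 and 652 CPM in NeuN- at CFC30, below its 3 naive libraries (-1.005 ± 0.13, edgeR adjusted p = 4.92e-05). Sirpa differed by -0.70 ± 0.09 and Tmem151a by -0.73 ± 0.12.

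Genes under peaks of the mPFC list alone were set beside those under peaks shared with HIP. A peak counted as shared when it overlapped a HIP peak by at least 1 bp. Shared peaks had a median width of 15442 bp and the 79 others 20443 bp. At CFC10, 47 of 79 genes (59.5%) of mPFC-only peaks and 81 of 194 (41.8%) of shared peaks rose in NeuN+, and at CFC30 48 (60.8%) and 75 (38.7%) rose. In NeuN- nuclei at CFC30 the order was the other way, with 7 of 74 (9.46%) and 24 of 193 (12.4%). These shares were set side by side without a test, and HIP peaks below the calling threshold or outside the list used here were not analysed, so an mPFC-only peak may match one of them.

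The CFC30 response of peak genes was larger in mPFC than in HIP neurons where the 2 differed. The RNA kits of the regions differed in version, so region and kit cannot be told apart. Each change is taken within a region and kit, but a difference of changes between regions is also one between kits. Of 274 peak genes tested, 34 (12.4%) had a larger log2 change in mPFC, against 1.74% of all genes. None had a smaller one, against 0.545%, with 6 at an unadjusted edgeR p under 0.05 and 0 by DESeq2. The 34 became 22 without mPFC NeuN+ CFC30 replicate 1. Of the 65 widest peaks 19 of 72 genes were among them, and of the 65 narrowest 1 of 59. The median difference in change was nearly the same in these groups, 0.15 and 0.13, while their median naive NeuN+ counts were 5318 and 37.3 reads per gene.

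Arc measured 4.00, 3.77, 4.50 and 4.48 CPM in the 4 naive HIP NeuN+ libraries and 6.89, 8.49, 13.8 and 8.43 at CFC30. HIP CFC30 lay above HIP naive, and the change was larger in mPFC by 1.63 ± 0.27 (log2, edgeR adjusted p = 0.000493). Egr3 was at 4.92, 4.27, 5.404 and 7.86 CPM in naive HIP and 8.18, 8.74, 8.67 and 7.55 at CFC30, overlapping at 1 library (difference 1.60 ± 0.21, edgeR adjusted p = 5.82e-05). Klf10 in HIP went from 2.17, 3.03, 2.46 and 3.80 CPM to 3.55, 3.66, 3.51 and 2.86, with overlap (1.17 ± 0.20, edgeR adjusted p = 0.000963).

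Homer1 rose in HIP neurons as well, from 178, 150, 159 and 155 CPM to 255, 300, 335 and 321, without overlap and by less than in mPFC (0.72 ± 0.11, edgeR adjusted p = 0.000233). 1700016P03Rik went from 4.34, 2.60, 3.11 and 2.53 CPM to 12.3, 12.7, 15.3 and 12.4 (1.01 ± 0.26, edgeR adjusted p = 0.0273). Bhlhe40 was at 8.76, 9.34, 8.84 and 7.60 CPM in naive HIP and 8.12, 9.48, 10.9 and 11.4 at CFC30, overlapping, against a rise without overlap in mPFC (0.82 ± 0.17, edgeR adjusted p = 0.0068). Lingo1, a regulator of myelination and axon growth, Hivep2, Mical2 and Enc1 were among the others, with differences of 0.39 ± 0.07, 0.31 ± 0.06, 0.56 ± 0.09 and 0.57 ± 0.11.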

How the data were processed

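γH2AX peaks and nuclear RNA were taken from the processed files. Per the study's methods, the authors aligned γH2AX reads with Bowtie2 to mm10 (GRCm38), removed duplicates, downsampled and merged replicates, and called broad peaks with MACS2 at a strict and a relaxed cutoff, keeping relaxed peaks where they overlapped strict ones, which bears on the widths. Genes were assigned by the authors by overlap and by hand. The deposited RNA values are raw counts per gene. To make them, the authors used Trimmomatic for trimming and HISAT2 for alignment (GRCm38), marked and dropped duplicates by Picard, and ran featureCounts on the full extent of each gene, introns and exons alike. Tool versions and the strand setting are not given in the sources used here, so overlapping and antisense genes, and near-identical histone copies, are uncertain. In the HIP table, 12 columns of non-neuronal values were not used here. A few peak genes are not reported here by name.

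Counts were tested with edgeR 4.0.16 in R 4.3.3 (quasi-likelihood F test, TMM normalization, Benjamini-Hochberg adjustment over all genes, called at an adjusted p under 0.05). Fits covered the 9 libraries of a fraction, the 18 of both fractions, or the NeuN+ libraries of both regions, and took in genes whose mean FPKM passed 0.2 in 1 or more groups. Alternatives were DESeq2 1.42.0, its size factors, no filter, filterByExpr, a replicate block, the compared groups alone, genes of single-gene peaks, and leaving out each library. The fits were tested on simulated counts with 200 changed genes. Gene body levels are CPM within a gene and FPKM between genes. Sequences were read from RefSeq (GRCm38.p6). With promoters for 74.9% of peak genes, the comparison of motif shares over peak genes was void and was not run.

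The peak genes and gene lists were chosen with earlier results of these data known. Named genes followed a rule: the 8 largest rises and 5 largest falls of each CFC comparison among called genes with no overlap and a mean count of at least 50 in the higher group, the 6 largest each way between naive fractions, the 5 largest effect differences, the 6 widest and 6 narrowest peaks, the members of each list with the smallest adjusted p (3 in NeuN+ and 2 in NeuN- at CFC30), and genes the study names. The other peak genes in the text (among them Egr4, Ier5, Nab2, Vgf, Cck, Nrn1, Nptx1, Shank1, Slc17a7, Slc1a2, Mef2c, Baiap2, Rgs4, Dusp1, Lingo1, Mical2, Enc1 and the microRNA hosts R3hdm1, Mir9-3hg and AC162302.2) were chosen after their values were seen. Analyses used Python 3.11.15, pandas 2.3.3, numpy 2.4.6 and matplotlib 3.10.9.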

Additional observations from a re-analysis of the deposited data

Results flagged for a closer look

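The change from naive differed between fractions by the interaction term (edgeR, adjusted p under 0.05; log2 change in NeuN- minus that in NeuN+) for 5 of the named peak genes at 10 minutes. The difference was -2.77 for Arc, -2.49 for Junb, -1.63 for Dusp6, -1.32 for Bhlhe40 and -1.03 for Sox8, all larger in NeuN+ nuclei. The Sox8 difference lost its call without NeuN+ naive replicate 1 or 3 or NeuN+ CFC10 replicate 1.

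At 30 minutes the difference was -1.70 for Arc, -1.51 for Sox8, -1.27 for Bhlhe40, -1.25 for Homer1 and -1.06 for Trim9, again larger in NeuN+. It was 1.59 for Usp2, 1.03 for Sgk1, 0.92 for Nr4a1, 0.72 for Plk2 and 0.66 for Fth1, larger in NeuN-. The Plk2 and Fth1 differences did not keep their calls under every library left out.

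The NeuN+ change at 30 minutes was larger in mPFC than in HIP (edgeR interaction term, log2) by 1.63 for Arc, 1.60 for Egr3, 1.17 for Klf10, 1.01 for 1700016P03Rik and 0.82 for Bhlhe40. The call of 1700016P03Rik was lost when single libraries were left out. Kit version also differed between the regions and cannot be told apart from region.

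One library stood far from the others of its group by Dixon's criterion: 1700016P03Rik measured 15.3 CPM in 1 HIP NeuN+ CFC30 library, against 12.3, 12.7 and 12.4 in the other 3. Chance gives such a gap in about 1 in 20 groups.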

How the results depend on the processing

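Directions of the named genes held under the alternatives run, with no sign turned among called values. Effects called larger or smaller below are compared as signed log2 changes. With no filter on low values, rises from CFC10 to CFC30 in NeuN+ were 12 (7 in the main analysis), rises and falls at CFC10 in NeuN- 19 and 9 (10 and 2), rises and falls from CFC10 to CFC30 in NeuN- 17 and 2 (7 and 0), effects at 10 minutes that were larger and smaller in NeuN- 2 and 50 (0 and 26), and changes larger in mPFC than in HIP 54 (34). DESeq2 gave 7 falls at CFC10 in NeuN- and 1 effect at 10 minutes larger in NeuN-. filterByExpr gave 1 fall at CFC10 in NeuN- and 5 effects at 30 minutes larger in NeuN- (9). A fit on the compared groups alone gave 7 falls at CFC10 in NeuN-, and genes of single-gene peaks gave 1. The causes were not tested.

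Leaving out 1 library gave 100 to 128 rises and 3 to 8 falls at CFC10 in NeuN+, 104 to 127 and 10 to 18 at CFC30, and 4 to 13 and 9 to 26 from CFC10 to CFC30. In NeuN- it gave 2 to 12 rises and 0 to 6 falls at CFC10, 20 to 35 and 4 to 10 at CFC30, and 4 to 7 and 0 to 2 between them. Between naive fractions 66 to 74 were higher and 159 to 164 lower in NeuN-. Effects larger in NeuN- were 0 to 1 at 10 minutes and 4 to 15 at 30 minutes, and effects smaller in NeuN- were 19 to 35 and 23 to 36. Changes larger in mPFC than in HIP were 22 to 39 and smaller ones 0 to 0. Rises under the 65 widest peaks were 4 to 10 and falls under the 130 narrower peaks 8 to 17, an alternative chosen after seeing the data. Among called named genes, 15 of 61 at CFC10 and 8 of 64 at CFC30 in NeuN+, 8 of 10 and 9 of 28 in NeuN-, and 5 of 91 between naive fractions lost the call under at least 1 alternative. Between CFC10 and CFC30, 10 of 19 in NeuN+ and 3 of 6 in NeuN- did. Of the effect differences between fractions, 7 of 19 at 10 minutes and 6 of 26 at 30 minutes did, and 8 of 19 between regions.

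Replicate numbers were not used to pair the samples in the main fits. Correlations of same-numbered deviations were not all above 0.1, for example 0.0426, 0.0951 and 0.0887 between naive fractions. Within each condition, however, every NeuN- library correlated best with the NeuN+ library of its number. Across conditions the same held for NeuN+ CFC10 with NeuN+ CFC30 and for NeuN- CFC10 with NeuN+ naive, but not for the other pairs of mPFC groups. These matches are a hint of a link by replicate number that the main fits left out, between fractions and possibly between times. What the replicate numbers stand for is not given in the labels. With the replicate block, 4 falls were called at CFC10 in NeuN- (2) and 1 effect at 10 minutes larger in NeuN- (0), and rises at CFC10 in NeuN+ were 130. The shared peaks were 181 under an overlap of at least 50% of the shorter peak and 164 under 50% of both. The planned comparison of promoter motifs was not run. Depth limits the lowest genes, such as the histones, Klf2 and 1700016P03Rik in NeuN-, whose calls rest on few reads.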
